A study of Mus musculus with 17 samples.

Results

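Hbb-bh1 and Hbb-y are the embryonic genes of the mouse beta-globin cluster, and their contacts were read here from 2 tables of three-way chromatin contacts. Each entry of a table is a pair of restriction fragments that were joined, in a single ligation product, to a fixed fragment called the viewpoint. An entry was taken when the midpoint of at least 1 of its fragments lay on chromosome 7 between 110985000 and 111003500 (mm9), a stretch called the embryonic range below. From the HS2 viewpoint, 9045 of 331928 listed pairs met this rule, of which 1390 had a fragment in Hbb-bh1 and 1671 had one in Hbb-y. From the beta CTCF viewpoint it was 7947 of 701591, with 1358 in Hbb-bh1 and 1090 in Hbb-y. Hbb-bh1 was taken as 110990001 to 110992000 and Hbb-y as 111000001 to 111002000, so that both intervals are 2 kb long and their levels can be set side by side.

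Along the mouse beta-globin cluster the embryonic genes come before the adult genes. Hbb-y and Hbb-bh1, which encode the beta-like chains of primitive erythroid cells in the yolk sac, are nearest to the locus control region, a cluster of enhancers, and the adult genes lie beyond them. Definitive erythroid cells of the adult express the adult genes, while both embryonic genes are silent there. HS2 is an enhancer of the locus control region. The beta CTCF viewpoint, where the insulator protein CTCF binds, lies on the far side of the adult genes, so that the cluster is between both viewpoints.

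The assay, Tri-C, cuts cross-linked chromatin with NlaIII, an enzyme that recognises CATG, ligates it, and enriches the viewpoint with oligonucleotides. The erythroid group consists of Ter-119+ cells, selected with magnetic beads, from spleen. The animals were female mice of strain C57BL/6, given phenylhydrazine, which destroys red cells, in 3 doses at intervals of 12 hours and killed after 5 days. Each dose is labelled as 40 mg per g body weight, a unit that could not be checked here. The ES group is E14, an established embryonic stem cell line of strain 129/Ola, in which the globin genes are inactive. Strain differs along with cell type, and their parts in any difference below cannot be told apart. The mice's age, and whether animals were pooled, are not given in the sources used here. There were 10 erythroid and 7 ES libraries, and the technical libraries of each biological replicate were summed, which leaves n = 3 for each cell type. Whether these replicates come from separate animals or cultures is not given, and the p-values therefore measure only the spread between these samples, which may be technical. No expression values were used, so the cell types were not checked against marker genes.

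Replicates held 84849 to 464338 counts in the HS2 table and 93686 to 1082506 in the beta CTCF table. The share of contact pairs with both fragments on chromosome 7 was lower in erythroid cells from HS2, at 31.5% ± 9.88 against 52.7% ± 7.24 (SD, n = 3; exact permutation p = 0.1, two-sided, the smallest that 3 against 3 allows), and 35.7% ± 8.27 against 49.3% ± 11.5 from beta CTCF (exact permutation p = 0.2). Erythroid replicate 3 had the highest share of its group, 42.7% against 27.6% and 24.1% from HS2 and 44.7% against 34.1% and 28.5% from beta CTCF. Levels are therefore given on 2 scales, as contacts per 1000 contact pairs of the whole table and per 1000 pairs within chromosome 7. A pair counts for each of its fragments, so that a pair inside a gene adds 2 to that gene's level. The first technical library of each erythroid replicate held 1.55 to 1.71 counts per listed pair in the HS2 table, where the other libraries of both cell types held 4.30 to 5.08. The cause of this difference was not tested, and counts cannot be taken as independent molecules. The tests of levels, ratios, shares and element pairs were therefore also run without these libraries and with every listed pair counted once per library.

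The cut sites of NlaIII set the units in which the genes were seen, and the Hbb-y promoter shows how short these are. RefSeq's table (GRCm38.p6) holds a promoter for 1 of both genes, Hbb-y. The 250 bases before its start site, on the minus strand at chr7:103853208-103853457, are printed with each CATG in capitals, since these are the sites at which the enzyme cuts.
Hbb-y: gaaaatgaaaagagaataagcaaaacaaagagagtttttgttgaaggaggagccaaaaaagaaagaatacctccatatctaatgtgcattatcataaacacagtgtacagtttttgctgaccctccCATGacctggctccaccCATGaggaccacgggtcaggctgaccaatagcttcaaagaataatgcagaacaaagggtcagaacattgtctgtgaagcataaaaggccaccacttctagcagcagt
The window holds 2 CATG sites, which begin 124 and 107 bases before the start site, at positions -124 and -107, and so lie 17 bases apart. CATG reads the same on both strands. Among all 32851 promoter windows of this length, 53.95% hold CATG and 21.3% hold it at least 2 times. CACCC, a motif known from globin promoters, occurs 1 time on either strand and shares 1 base with the second CATG, and CCAAT occurs 1 time. CACCC is in 52.0% and CCAAT in 33.9% of all windows, counting both strands. GATA occurs 2 times here and is in 53.6% of windows. The same stretch of the adult genes Hbb-bs and Hbb-bt holds 0 CATG sites. These matches describe letters only.

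Seen from HS2, contacts with Hbb-bh1 did not differ between the cell types beyond the spread of the replicates. Its level per 1000 contact pairs was 8.08, 5.15 and 12.0 in erythroid replicates 1, 2 and 3, and 10.3, 17.2 and 9.06 in the ES replicates. The groups overlap: erythroid replicate 3 lies above both ES replicates 1 and 3. The means were 8.41 ± 3.43 and 12.2 ± 4.39 (SD, n = 3), or -0.53 as a log2 change, erythroid minus ES (edgeR's quasi-likelihood test over all bins, SE 0.48, adjusted p = 0.4405). Within chromosome 7 the order of the means turned, with 26.3 ± 4.26 against 22.7 ± 5.01, or 0.21 in log2 (edgeR, SE 0.32, adjusted p = 0.7297). The change was also positive with TMM factors (0.12) and in DESeq2 (0.19), so these data give Hbb-bh1 no direction from HS2.

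Hbb-y, the gene nearest to the locus control region, had the lower erythroid mean from HS2, again without passing the threshold. Its level per 1000 contact pairs was 5.34, 4.94 and 11.9 in erythroid replicates 1, 2 and 3, and 16.9, 14.7 and 9.04 in the ES replicates. Only erythroid replicate 3 reaches into the ES values, where it lies above ES replicate 3. The means were 7.41 ± 3.93 and 13.6 ± 4.08 (n = 3), which is -0.87 on the log2 scale (edgeR, SE 0.48, adjusted p = 0.1663). Within chromosome 7 they were 22.6 ± 4.69 and 25.6 ± 6.65, or -0.18 in log2 (edgeR, SE 0.33, adjusted p = 0.796). Scaled to the pairs within 150 kb of the viewpoint, Hbb-y fell by 0.91 on the log2 scale (adjusted p = 0.01251, edgeR), but under this scaling 38.0% of all bins were called and their median was -0.88. The adjusted p of Hbb-y was 0.05482 to 0.796 under every other alternative run (edgeR and DESeq2). Without erythroid replicate 3, whose share of pairs within chromosome 7 was the highest of its group, the change was -1.40 (adjusted p = 0.05482, edgeR).

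**Figure D1:**
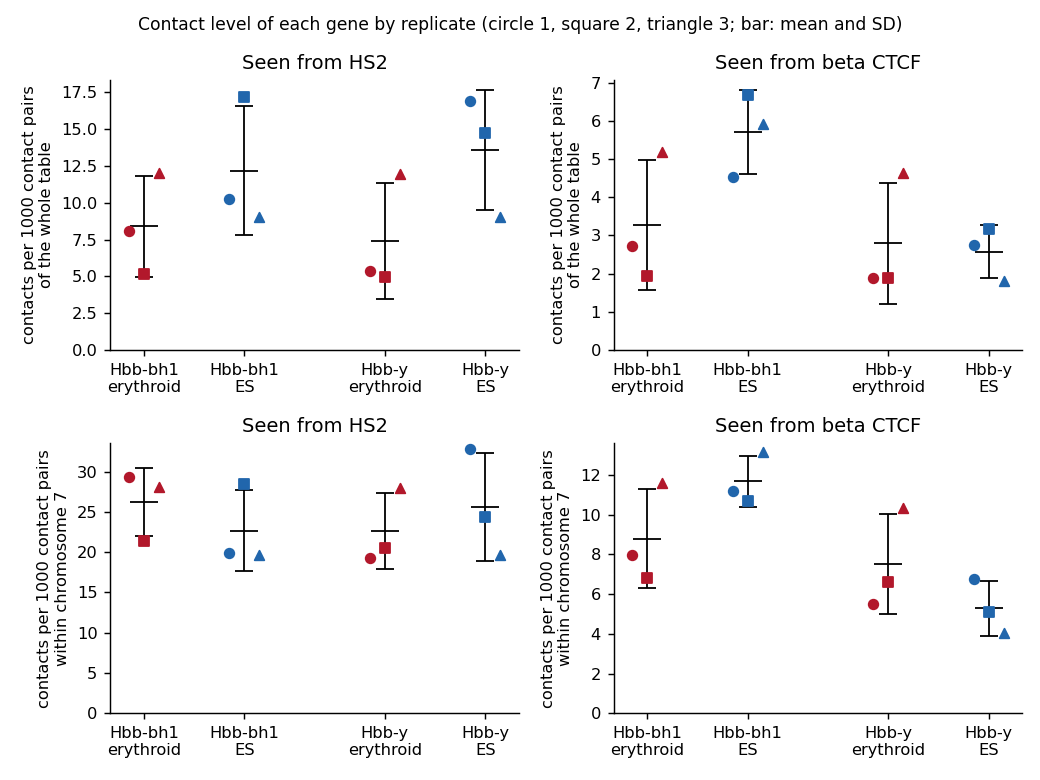
Contact level of Hbb-bh1 and Hbb-y by replicate, seen from HS2 (left) and beta CTCF (right), per 1000 contact pairs of the table (top) and within chromosome 7 (bottom); symbols are replicates 1 (circle), 2 (square) and 3 (triangle), bars are mean and SD. Erythroid replicate 3 (triangle) is the highest erythroid value in 7 of the 8 sets of points, the exception being Hbb-bh1 from HS2 within chromosome 7, where replicate 1 is at 29.3 and replicate 3 at 28.1.

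Over the whole embryonic range, 0 of 10 bins of 2 kb were called from HS2 in edgeR's quasi-likelihood test. At an unadjusted p under 0.05 there were 0 of the 10 and 47 of all 142 bins within 150 kb of HS2. DESeq2 also called 0, where it called 25.4% of all bins. It had 2 of the 10 and 49 of all 142 at an unadjusted p under 0.05. In edgeR 21.1% of all 142 bins were called, 7 higher and 23 lower in erythroid cells. Over all bins this count depended on single replicates, with 2 higher and 7 lower without erythroid replicate 1, 3 and 9 without erythroid replicate 2, and 3 and 10 without ES replicate 2. In the embryonic range 0 bins were called in each of these. The bins of the range had log2 changes between -0.87 (Hbb-y) and 0.03 (the bin at 110984001 to 110986000), with a median of -0.44, beside a median of -0.79 over all bins. On the chromosome 7 scale 0 of the 10 bins were called again (edgeR), where 21.8% of all bins were. At an unadjusted p under 0.05 there were 0 of the 10 and 40 of all 142. The medians were 0.25 for the range and -0.12 for all bins. Replicate groups overlapped in every bin of the range relative to the table total, and did not overlap in 41.5% of all bins. Within the range the genes' own bins were the highest in ES cells: after Hbb-y and Hbb-bh1 came the bin at 110998001 to 111000000, beside Hbb-y, with 9.26 ± 4.32, and the lowest was that at 110988001 to 110990000, beside Hbb-bh1, with 1.73 ± 1.01 (n = 3). In erythroid cells Hbb-bh1, Hbb-y and the same neighbour, with 6.64 ± 2.08, were also the highest 3, and their SDs overlap.

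**Figure D2:**
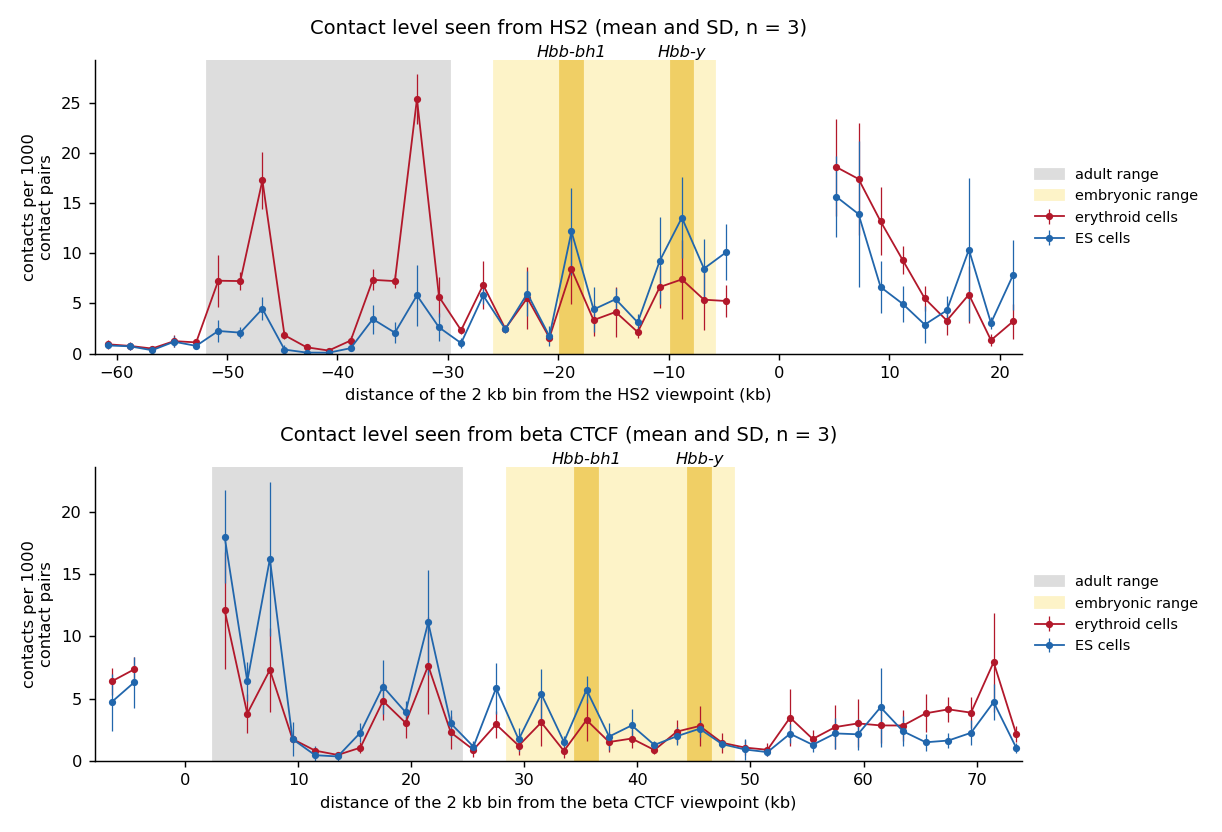
Contacts per 1000 contact pairs in 2 kb bins against distance in kb from the HS2 viewpoint (top) and the beta CTCF viewpoint (bottom), as mean and SD of 3 replicates, with the adult range in grey, the embryonic range in light yellow and both genes in darker yellow. From HS2 the erythroid curve rises above the ES curve in the adult range, up to 25.4 against 5.81 in the bin at -32.8 kb, while at Hbb-bh1 (-18.8 kb) and Hbb-y (-8.8 kb) the erythroid means are below the ES means.

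Levels of the genes were then set against those of the adult genes. From HS2 the mean level per bin of the adult range, 11 bins holding the adult beta-globin genes, was 7.41 ± 1.08 in erythroid cells and 2.17 ± 0.87 in ES cells (n = 3), and 7 of the 11 bins rose (edgeR), or 10 on the chromosome 7 scale. The ratio of a gene to the mean adult bin of the same replicate does not depend on the table's total. For Hbb-y the log2 ratio was -0.43, -0.39 and 0.48 in erythroid replicates 1, 2 and 3, and 2.43, 2.96 and 2.62 in the ES replicates. Every erythroid value is thus far below every ES value, and the difference of means was -2.78 (exact permutation p = 0.1, two-sided, n = 3; 0.16 after Benjamini-Hochberg adjustment over the 8 ratios tested). For Hbb-bh1 the log2 ratio was 0.17, -0.33 and 0.48 in erythroid replicates and 1.71, 3.18 and 2.62 in ES replicates, a difference of -2.40 (exact permutation p = 0.1, adjusted 0.16). Both genes thus lay near the adult mean in erythroid cells and above it in ES cells, and the difference kept its sign without any 1 replicate, at -3.08 to -2.62 for Hbb-y and -2.79 to -2.06 for Hbb-bh1. These ratios were chosen after levels had been seen, and the adult bins called above are their denominator. The separation is not particular to the genes: of 117 bins outside the adult and embryonic ranges with counts in every replicate, 92.3% also had groups that do not overlap, each with the lower ratio in erythroid cells. Their median ratio was -3.83 in erythroid and -0.92 in ES cells, a difference close to that of both genes.

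From the beta CTCF viewpoint, too, neither gene's difference between cell types passed the threshold. The level of Hbb-bh1 per 1000 contact pairs was 2.72, 1.94 and 5.18 in erythroid replicates 1, 2 and 3, and 4.52, 6.67 and 5.93 in the ES replicates. Only erythroid replicate 3 reaches the ES values. The means were 3.28 ± 1.69 and 5.71 ± 1.09 (n = 3), which is -0.80 on the log2 scale (edgeR, SE 0.47, adjusted p = 0.4711), and the sign was the same under every alternative run. DESeq2 with its own size factors called this bin, with a change of -1.04 (adjusted p = 0.02262), and the bin beside it at 110988001 to 110990000, where DESeq2 called 16.0% of all 144 bins. The adjusted p of Hbb-bh1 over the other alternatives was 0.1054 to 0.8914. On the chromosome 7 scale the means were 8.79 ± 2.49 and 11.7 ± 1.30, or -0.41 in log2 (edgeR, SE 0.30, adjusted p = 0.4428).

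Contacts of Hbb-y with beta CTCF did not differ between the cell types beyond the spread of the replicates. Its level per 1000 contact pairs was 1.88, 1.89 and 4.62 in erythroid replicates 1, 2 and 3, and 2.74, 3.18 and 1.82 in the ES replicates. The highest value is that of erythroid replicate 3, and the other erythroid values lie within the ES range. The means were 2.80 ± 1.58 and 2.58 ± 0.70 (n = 3), a log2 difference of 0.12 (edgeR, SE 0.49, adjusted p = 0.9236). On the chromosome 7 scale they were 7.50 ± 2.52 and 5.30 ± 1.38, or 0.50 in log2 (edgeR, SE 0.35, adjusted p = 0.4316). Relative to the table total, the sign turned without erythroid replicate 3 (-0.45), without ES replicate 3 (-0.08), with the window total, in DESeq2 and with each listed pair counted once, so no direction can be given. In the embryonic range 0 of 10 bins were called from beta CTCF (edgeR), where 0.0% of all 144 bins were called. At an unadjusted p under 0.05 there were 0 of the 10 and 17 of all 144. DESeq2 called 2 of the 10, a share near the 16.0% given for all bins. It had 5 of the 10 at an unadjusted p under 0.05, a larger share than the 41 of all 144. On the chromosome 7 scale 0 of the 10 bins and 0.694% of all bins were called (edgeR). There 0 of the 10 and 29 of all 144 had an unadjusted p under 0.05. Without ES replicate 1, 24 of all bins rose and 6 fell (edgeR), none of them in the embryonic range. Replicate groups overlapped in every bin of the range, and did not overlap in 15.3% of all bins.

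The ratio between the genes' levels separated the replicate groups from beta CTCF, in a test that cannot pass the threshold with 3 replicates. There the log2 ratio of Hbb-y to Hbb-bh1 was -0.53, -0.04 and -0.16 in erythroid replicates 1, 2 and 3, and -0.72, -1.07 and -1.71 in the ES replicates. Hbb-y was thus below Hbb-bh1 in all 6 replicates, and every erythroid ratio lies above every ES ratio. The difference of means was 0.92 (exact permutation p = 0.1, two-sided, n = 3; adjusted 0.16), and it was 0.65 to 1.14 without any 1 replicate. Ratios between other pairs of bins were not taken, so how usual such a separation is cannot be said. From HS2 the same ratio was -0.22 ± 0.33 in erythroid and 0.16 ± 0.49 in ES cells, with overlapping groups (exact permutation p = 0.4, n = 3).

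A different ratio sets the levels of 1 gene from both viewpoints side by side. It uses the same beta CTCF levels as the ratio between the genes, so the results are not independent. At Hbb-y the log2 ratio of the HS2 level to the beta CTCF level was 1.504, 1.39 and 1.37 in erythroid replicates 1, 2 and 3, and 2.63, 2.21 and 2.32 in the ES replicates. The groups do not overlap, and the difference of means was -0.96 (exact permutation p = 0.1, two-sided, n = 3; adjusted 0.16), or -0.65 with levels per chromosome 7 total and -0.59 with each listed pair counted once. Of 99 bins outside the embryonic range with counts in every replicate of both tables, 50.5% had groups that do not overlap, 38 of them with the lower ratio in erythroid cells, as at Hbb-y, and 12 with the higher. At Hbb-bh1 the ratio was 1.40 ± 0.18 in erythroid and 1.05 ± 0.39 in ES cells, a difference of 0.34 with overlapping groups (exact permutation p = 0.2, n = 3), and only 0.12 without ES replicate 3. From beta CTCF the log2 ratio of Hbb-y to the mean adult bin was -0.61 ± 0.30 in erythroid and -1.29 ± 0.03 in ES cells. The groups do not overlap, with a difference of 0.68 (exact permutation p = 0.1, n = 3, adjusted 0.16). The denominator was itself lower in erythroid cells, at 4.10 ± 1.68 against 6.31 ± 1.75 per 1000 contact pairs, with 0 of 11 adult bins called (edgeR). Hbb-y was at 2.80 ± 1.58 and 2.58 ± 0.70. Of the 117 bins outside the adult and embryonic ranges, 53.8% had groups that do not overlap, 62 of them with the higher ratio in erythroid cells. For Hbb-bh1 that difference was -0.25 (exact permutation p = 0.7, n = 3). Tables of both viewpoints were scaled separately, so a level from one is set against a level from the other only as such a ratio.

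**Figure D3:**
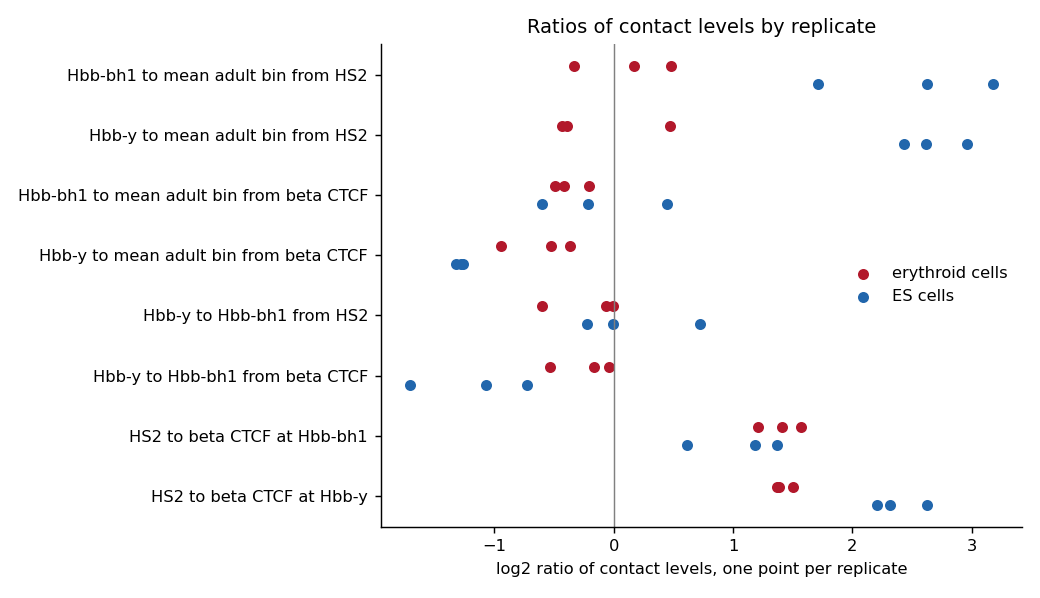
Log2 ratios of contact levels, 1 point per replicate, for erythroid (red) and ES cells (blue); each line of the plot names the 2 levels and the viewpoint. The widest separation of means is that of Hbb-y against the mean adult bin from HS2, with erythroid values from -0.43 to 0.48 and ES values from 2.43 to 2.96.

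The bins outside the embryonic range with levels most like each gene were found by the mean absolute difference in log2 level over the 6 replicates. From HS2 they were the same 3 bins for both genes: 111004001 to 111006000, at -4.8 kb from HS2, between it and Hbb-y, 111026001 to 111028000, at 17.2 kb on the other side, and 110982001 to 110984000, at -26.8 kb. The first had 5.24 erythroid and 10.1 ES contacts per 1000 contact pairs and differed from Hbb-y by 0.42 and from Hbb-bh1 by 0.50. From beta CTCF the genes had different neighbours in level. The bin most like Hbb-bh1 was again 110982001 to 110984000 (difference 0.19), followed by 110960001 to 110962000 and 110974001 to 110976000, both in the adult range. The bins most like Hbb-y lay farther out, at 110888001 to 110890000 (0.20), beyond the viewpoint, and at 111018001 to 111020000 (0.25) and 111012001 to 111014000 (0.27), in the locus control region.

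Hbb-bh1 was seen as 15 fragments and Hbb-y as 10. In Hbb-y the fragment with the most counts was the same from both viewpoints, 111001666 to 111001826, of 161 bp. From HS2 its level was 1.06 ± 0.78 per 1000 contact pairs in erythroid and 2.66 ± 0.44 in ES cells, and from beta CTCF 0.47 ± 0.13 and 0.26 ± 0.20 (n = 3). The replicate groups do not overlap in either table, and they stand in opposite order: ES cells were higher from HS2 and erythroid cells from beta CTCF. Over all fragments of the window with at least 50 counts, the groups did not overlap in 22.7% of 1097 from HS2 and 15.5% of 1274 from beta CTCF. The next fragments by count were 111001284 to 111001385 in both tables, then 111001844 to 111001982 from HS2 and 111001466 to 111001665 from beta CTCF, and together the leading 3 of 10 carried 41.4% and 42.0% of the gene's counts. Right beside the leading fragment lies 111001827 to 111001843, of 17 bp, the only 1 of the 10 fragments with the spacing of the CATG pair in the promoter printed above. It had 0.53 ± 0.50 erythroid and 1.29 ± 0.06 ES contacts per 1000 pairs from HS2, and 0.14 ± 0.09 and 0.05 ± 0.06 from beta CTCF (n = 3). The match is by length alone, since the promoter is given on another build.

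In Hbb-bh1 the leading 3 of the 15 fragments held 27.8% of the counts from HS2 and 25.9% from beta CTCF. From HS2 these were 110991227 to 110991284, of 58 bp, with 0.62 ± 0.48 erythroid and 2.32 ± 2.07 ES contacts per 1000 pairs, its neighbour 110991285 to 110991328 with 0.73 ± 0.24 and 1.31 ± 1.10, and 110990382 to 110990525 with 0.80 ± 0.30 and 0.72 ± 0.48 (n = 3). The ES replicates of these fragments spread widely, and the groups overlap in all 3. From beta CTCF the leading fragments were 110990238 to 110990381, 110991409 to 110991501 and again 110991227 to 110991284, the last with 0.25 ± 0.13 erythroid and 0.84 ± 0.52 ES contacts and groups that do not overlap. Fragments of 1 gene share ligation products and are not independent.

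**Figure D4:**
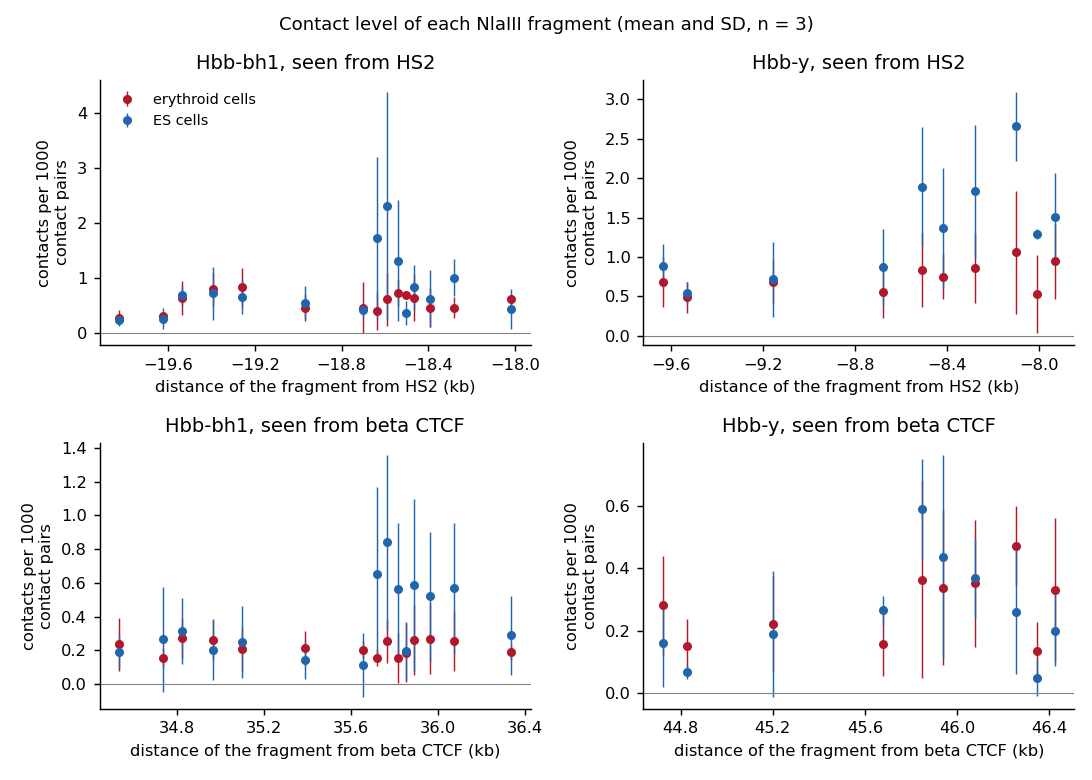
Contacts per 1000 contact pairs of each NlaIII fragment of Hbb-bh1 (left, 15 fragments) and Hbb-y (right, 10 fragments) against distance in kb from the HS2 (top) and beta CTCF (bottom) viewpoint, as mean and SD of 3 replicates. From HS2 the ES mean is above the erythroid mean in all 10 Hbb-y fragments and in 8 of the 15 Hbb-bh1 fragments.

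The partner of a gene is the other fragment of a contact pair, read from each fragment in the gene. A pair inside the gene thus gives 2 partners, and any other pair 1. For Hbb-bh1 from HS2, 2705 erythroid pairs inside the gene gave 5410 partner counts. This raises the share of the gene itself and lowers all other shares. Counted in this way, the gene itself was the largest class of partners in most replicates. Its rank with each pair counted 1 time was not taken. From HS2 this share was 59.0% ± 6.89 in erythroid and 52.7% ± 8.22 in ES cells for Hbb-bh1, and 45.6% ± 9.80 and 49.0% ± 7.57 for Hbb-y (n = 3). For all 34 bins of the locus taken the same way, the median share of partners in the same bin was 33.17% in erythroid and 33.15% in ES cells, with highest values of 59.0% and 56.4%. Such pairs join neighbouring fragments.

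The share of each gene's partners in the locus control region did not separate the cell types. From HS2 it was 5.84% ± 0.75 in erythroid and 5.34% ± 0.51 in ES cells for Hbb-y (exact permutation p = 0.3, n = 3), and 2.82% ± 0.36 and 3.58% ± 1.45 for Hbb-bh1 (exact permutation p = 0.4, n = 3). From beta CTCF it was 3.36% ± 0.55 and 2.83% ± 3.87 for Hbb-y (exact permutation p = 1.0, n = 3) and 2.26% ± 1.23 and 1.97% ± 3.07 for Hbb-bh1 (exact permutation p = 0.9, n = 3). The ES values from beta CTCF come almost wholly from ES replicate 1, at 7.29% and 5.52%, against at most 0.88% in the others. From HS2, fragments within 1 kb of the viewpoint are part of these shares. For Hbb-y the HS2 share rests on 431 erythroid and 395 ES counts. The element pairs tested below, which leave those fragments out, held 82 and 113 counts with the region's near side and 176 and 121 with its far side.

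The share of Hbb-y partners in the adult range was higher in every erythroid replicate from HS2. It was 7.16%, 3.35% and 3.14% in erythroid replicates 1, 2 and 3, and 1.39%, 0% and 0.86% in the ES replicates. The 0 in ES replicate 2 is of 1249 partner fragments, which allows a share of up to 0.240% (3 counts, counting error only). Every erythroid value lies above every ES value, with means of 4.55% ± 2.26 and 0.75% ± 0.70 (exact permutation p = 0.1, two-sided, n = 3; 0.4 after adjustment over the 16 shares tested), and the order held with each listed pair counted once. The shares rest on 302 erythroid and 74 ES counts. Of 15 other bins of the locus outside the adult range, 66.7% had groups that do not overlap in this share, each with the higher share in erythroid cells, and the medians were 5.79% and 1.28%. The level of the adult range itself from HS2 was higher in erythroid cells, as given above. The pairs of Hbb-y with the adult range are set against expected counts below. For Hbb-bh1 the share was 2.53% ± 1.18 and 1.68% ± 0.95 (exact permutation p = 0.4, n = 3), and from beta CTCF both genes' groups overlapped, as did those of all but 6.67% of the 15 bins.

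Partners on chromosome 7 beyond the locus also separated the cell types in part. For Hbb-y from HS2 it was 14.8%, 18.4% and 17.8% in erythroid replicates and 27.4%, 21.9% and 33.0% in ES replicates (exact permutation p = 0.1, n = 3; adjusted 0.4). For Hbb-bh1 from HS2 the means were 13.4% ± 0.66 and 21.2% ± 5.71 (exact permutation p = 0.1, n = 3; adjusted 0.4), and for Hbb-y from beta CTCF 19.7% ± 0.94 and 37.6% ± 8.88 (exact permutation p = 0.1, n = 3; adjusted 0.4). The groups do not overlap in these 3 cases. From HS2 this held for 45.8% of 24 other bins of the locus, each with the lower share in erythroid cells, and the medians were 16.5% and 27.7%. From beta CTCF it held for 8.0% of 25 bins, with medians of 29.6% and 34.4%. With each listed pair counted once, the difference for Hbb-y from beta CTCF shrank to -7.28 percentage points and its groups overlap (exact permutation p = 0.2, n = 3). From HS2 the differences counted in this way were -14.4 points for Hbb-y and -9.26 for Hbb-bh1 (exact permutation p = 0.1 in each, n = 3). Hbb-bh1 from beta CTCF had 22.5% ± 2.13 and 22.6% ± 5.95 (exact permutation p = 1.0, n = 3). Partners on other chromosomes made up 13.7% ± 5.55 and 8.999% ± 3.17 for Hbb-y from HS2 (exact permutation p = 0.2, n = 3) and 13.3% ± 3.56 and 11.2% ± 4.66 for Hbb-bh1 (exact permutation p = 0.6, n = 3). The medians over the 34 bins of the locus were 17.89% and 10.97%.

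**Figure D5:**
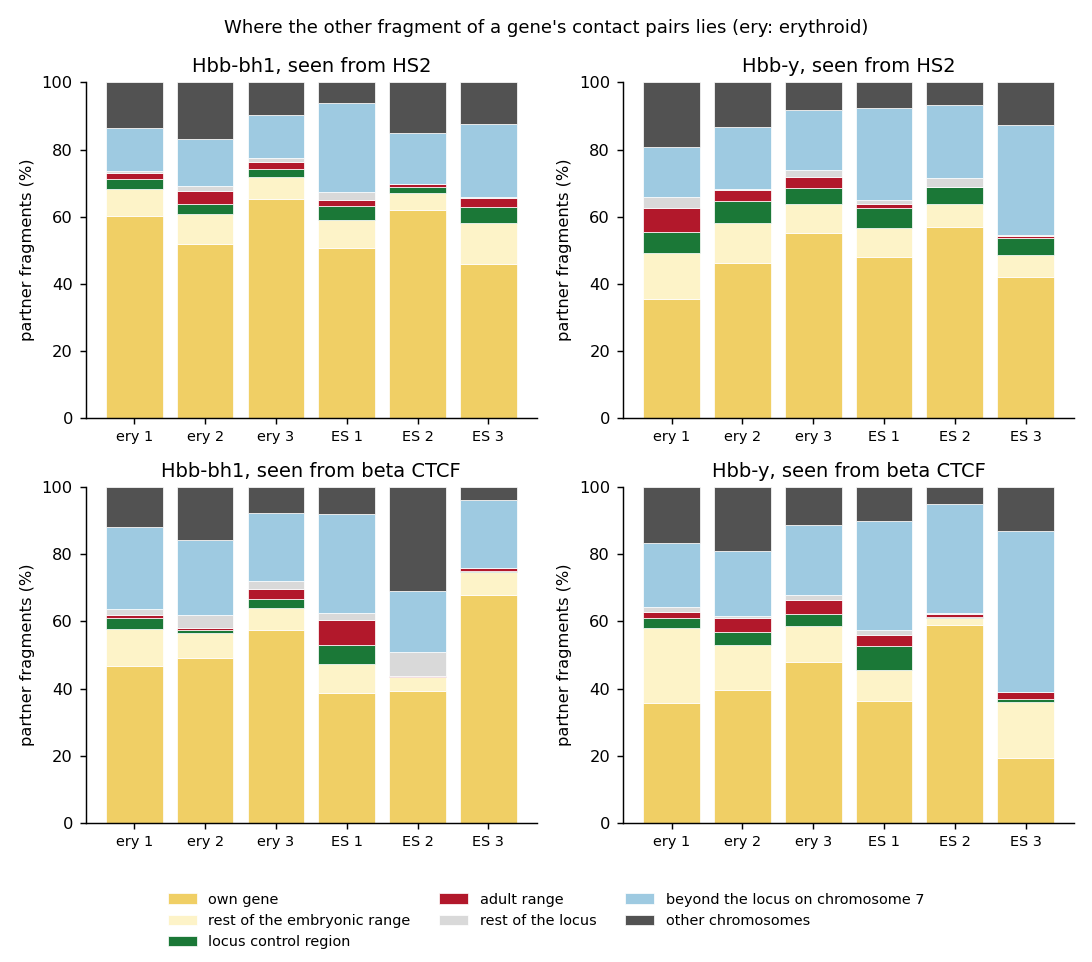
Share in percent of partner fragments by where they lie, for each gene and viewpoint, 1 stacked bar per replicate (ery, erythroid). A pair inside the gene counts for each of its fragments, which raises the gene's own share and lowers all other shares. Counted in this way, fragments of the gene itself are the largest class in 23 of the 24 bars. The adult range (red) is at 3.14% to 7.16% for Hbb-y from HS2 in erythroid cells against 0% to 1.39% in ES cells.

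Three-way contacts of a viewpoint, a gene and another named element were then tested pair by pair. Replicate counts of pairs are given unscaled, while their log2 changes are relative to the table total. From HS2, 0 of the 24 tested pairs with Hbb-bh1 or Hbb-y were called (edgeR), where 2.3% of all 87 pairs were called. At an unadjusted p under 0.05 there were 1 of the 24 and 12 of all 87. DESeq2 called 0 of the 24, where it called 14.9% of all pairs. It had 5 of the 24 and 22 of all 87 at an unadjusted p under 0.05. Hbb-y with the proximal adult range, the side nearer to the embryonic genes, had 67, 25 and 140 counts in erythroid replicates 1, 2 and 3, and 45, 0 and 7 in the ES replicates. ES replicate 1 lies within the erythroid values, and the log2 change was 1.59 (edgeR, SE 1.09, adjusted p = 0.6046). Hbb-y with the near side of the locus control region had 17, 5 and 60 erythroid and 61, 15 and 37 ES counts, a change of -1.60 (edgeR, SE 1.10, adjusted p = 0.6046), and with its far side 30, 30 and 116 against 99, 16 and 6, a change of -0.27 (edgeR, SE 1.03, adjusted p = 0.8786). Per 1000 contact pairs, the near side gave 0.075 ± 0.055 erythroid and 0.229 ± 0.055 ES contacts, with groups that do not overlap. Hbb-bh1 with the proximal adult range also had groups that do not overlap, in the opposite order (log2 change 0.77, SE 1.15, adjusted p = 0.8409, edgeR). The share of all pairs with such groups was not taken for frequency. The lowest unadjusted p was that of Hbb-y with the upstream flank, beyond the locus control region, at -1.99 (edgeR, SE 0.96, adjusted p = 0.2812), where ES replicate 1 alone held 272 of 333 ES counts.

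Hbb-bh1 and Hbb-y met each other in few contact pairs. With HS2 as the viewpoint, the counts were 24, 11 and 19 in erythroid replicates and 23, 20 and 24 in ES replicates, a log2 change of -1.39 (edgeR, SE 1.17, adjusted p = 0.7372). With beta CTCF they were 79, 36 and 36, and 7, 0 and 22, a change of 0.16 (edgeR, SE 1.46, adjusted p = 0.9989). Hbb-bh1 with the far side of the locus control region had 24, 40 and 95 erythroid and 90, 1 and 50 ES counts from HS2 (log2 change -0.66, SE 1.01, adjusted p = 0.8409, edgeR). Pairs inside a gene were far more frequent, with 540, 346 and 1819 erythroid and 708, 451 and 268 ES counts for Hbb-bh1, and 211, 297 and 1527 against 1105, 356 and 245 for Hbb-y. From beta CTCF, 0 of 24 tested pairs with a gene were called (edgeR), where 0.0% of all 95 pairs were called. At an unadjusted p under 0.05 there were 0 of the 24 and 1 of all 95. DESeq2 called 0 of the 24, where it called 1.05% of all pairs. It had 2 of the 24 and 10 of all 95 at an unadjusted p under 0.05.

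Each pair was also set against an expected count, obtained in each replicate from how often both of its bins were contacted and how far apart they lie. Against this expectation 0 of 23 pairs with a gene were called from HS2 (edgeR), where 3.45% of all 87 pairs were called. At an unadjusted p under 0.05 there were 2 of the 23 and 16 of all 87. From beta CTCF 0 of 25 were called (edgeR), where 1.03% of all 97 were. There 0 of the 25 and 6 of all 97 had an unadjusted p under 0.05. DESeq2 was not run on this comparison. The ratio of observed to expected counts for Hbb-y with the proximal adult range from HS2 was 3.12, 1.14 and 2.22 in erythroid replicates and 1.09, 0 and 0.88 in ES replicates, or 1.53 in log2 (edgeR, SE 0.89, adjusted p = 0.4048). For Hbb-bh1 with the same range it was 0.14, 0.19 and 0.20 in erythroid replicates and 0.37, 0.33 and 0.58 in ES replicates, or -1.27 in log2 (edgeR, SE 0.79, adjusted p = 0.4143). Neither difference passed the threshold. The groups do not overlap for either gene, and they stand in opposite order. Of all pairs, 26.4% had groups that do not overlap. With each listed pair counted once, the ratio for Hbb-bh1 was 0.75 ± 0.14 in erythroid and 0.60 ± 0.16 in ES cells. For Hbb-y it was then 2.25 ± 0.56 and 1.34 ± 1.255 (n = 3), so the genes' means no longer stood in opposite order. The frequency of the Hbb-bh1 pair was 0.144 ± 0.031 erythroid and 0.0835 ± 0.024 ES contacts per 1000 contact pairs, with groups that do not overlap. For pairs inside Hbb-bh1 the ratio over all counts was 1.37 and 1.03 (log2 change 0.41, SE 0.13, adjusted p = 0.1053, edgeR), and inside Hbb-y 1.32 and 1.06 (0.31, SE 0.13, adjusted p = 0.2175, edgeR). Without ES replicate 1 the pair of Hbb-y with the stretch between both embryonic genes was called, at 2.94 for frequency (adjusted p = 0.03504, edgeR) and 3.28 against expected (adjusted p = 0.03963, edgeR). In that setting 13.8% of all pairs were called for frequency and 5.75% against expected. With all replicates the counts of Hbb-y with that stretch were 68, 97 and 309, and 209, 9 and 2, and the changes 0.57 and 1.62 (adjusted p = 0.8409 and 0.3024, edgeR).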

How the data were processed

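Tri-C contacts of HS2 and beta CTCF were taken from 2 of the authors' 4 deposited tables. Their values are counts per pair of NlaIII fragments in each of 17 libraries, as the deposited files show. The submitters' processing notes name Trim Galore, Bowtie and mm9, without versions or roles; filtering and removal of duplicates are not given in the sources used here. Members, elements and lists were chosen with earlier results of these data known.

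Technical replicates were summed. Each pair added 1 count to the 2 kb bin of each of its fragments, within 150 kb of the viewpoint. The viewpoint was placed in the longest gap between listed fragments (HS2 at 111008334 to 111011358, beta CTCF at 110954158 to 110956820). Fragments within 1 kb of it were left out of bins and element pairs, but not out of the partner shares. Bins under 50 counts and pairs of the 14 elements under 30 counts were not tested. edgeR 4.0.16 (quasi-likelihood, R 4.3.3) used the table total as library size with no factors; the threshold was a Benjamini-Hochberg adjusted p under 0.05. Each SE was taken as the log2 change's size over the root of the F statistic. Expected counts came from 200 rounds of iterative scaling. DESeq2 1.42.0 was an alternative. For shares and ratios, exact permutation tests (two-sided) were used. No libraries held identical values. The named items are both genes, every bin of the embryonic range, every element as partner, the 3 fragments of highest count per gene and viewpoint, and the 3 bins most alike; other fragments and pairs given were chosen after their values were seen. Ratios to the adult range, and the shares of other bins, fragments and pairs whose groups do not overlap, were added after the data were seen. The adult ranges were placed by the known order of the locus, since no mm9 annotation was used. The fits were tested on simulated data. Sums, shares and permutations used pandas 2.3.3, numpy 2.4.6 and scipy 1.17.1 under Python 3.11.15; plots used matplotlib 3.10.9.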

Additional observations from a re-analysis of the deposited data

How the results depend on the processing

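For the 10 results tested with edgeR, 125 of 140 values under alternative settings kept their direction and side of the threshold. The 24 shares and ratios rest on exact tests that cannot pass the threshold with 3 replicates, so only their sign could change, as it did in 13 of 246 values. From HS2, the log2 change of Hbb-bh1 turned from -0.53 to 0.21 with the chromosome 7 total, 0.12 with TMM factors and 0.19 in DESeq2, and Hbb-y passed the threshold with the window total (-0.91), which made 1 of the 10 embryonic bins called, where 38.0% of all bins were called. From beta CTCF, DESeq2 called Hbb-bh1 (-1.04), 1 of 2 bins called in the embryonic range, where 16.0% of all bins were called. The change of Hbb-y there turned from 0.12 to -0.0152 with the window total, -0.0609 in DESeq2 and -0.19 with each fragment pair counted once, and ranged from -0.45 to 0.34 with a replicate left out. The cause of these turns was not tested. The number of pairs with a gene called from HS2 ranged from 0 to 1 with a replicate left out, for frequency and against expected. With a replicate left out, the following also changed sign: the log2 ratio of Hbb-bh1 to the adult range from beta CTCF (-0.48 to 0.03833), the share of Hbb-bh1 partners on other chromosomes from HS2 (-0.46 to 4.09 percentage points), and from beta CTCF its shares in the locus control region (-0.70 to 2.05), the adult range (-2.58 to 1.10), chromosome 7 beyond the locus (-2.36 to 3.26) and other chromosomes (-7.85 to 5.86), and the share of Hbb-y partners in the locus control region (-0.72 to 2.75), which was also -0.01184 with the gene widened by 1 kb. The share of Hbb-bh1 partners in the locus control region from HS2 was 1.21 percentage points higher in erythroid cells with each fragment pair counted once.

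Biological replicates carry the same numbers in both groups, but same-numbered samples did not deviate together (correlations over bins of 0.01, -0.20 and -0.03 from HS2 and 0.22, -0.23 and -0.08 from beta CTCF). With the replicate block, no bin or pair with a gene was called, and the change of Hbb-y from beta CTCF was -0.0066; the other gene levels were -0.55 and -0.97 from HS2 and -0.90 from beta CTCF. Low counts limit the element pairs: pairs of a gene with another element often held few counts in a replicate. Strain cannot be told apart from cell type, and 3 replicates against 3 allow no exact p below 0.1.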
